A study of Mus musculus with 15 samples.

Results

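Gene expression in the hindbrain was compared with that in the dorsal midbrain of mouse embryos at stage E12.5, in midgestation. The comparison used 6 of the 15 RNA-seq samples of a series on 5 brain regions, the 3 hindbrain and the 3 dorsal midbrain samples, taken by their labels. Per the labels, all embryos came from C57bl/6 mice that express green fluorescent protein under the promoter of Th, the gene of tyrosine hydroxylase, so both regions carried the transgene, and neither received a treatment named in the labels. Tissue was dissected under a microscope and whole tissue was sequenced, with no sorting step named. Of the 24264 genes in the table, 13219 had at least 1 RPKM (reads scaled for the length of the gene model and the number of reads mapped in the library) in at least 3 of the 6 samples and were tested. Nothing in the labels tells whether the 3 samples of a region are from different embryos. The p-values therefore reflect how far these samples spread, and part of that spread may be technical. The labels also leave out how far along the hindbrain, or how far towards its ventral side, the tissue was taken.

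The midbrain and hindbrain meet at the isthmus, a signalling centre whose position is set by the mutual repression of the homeobox genes Otx2, in front, and Gbx2, behind. Behind it, the hindbrain is divided into rhombomeres, whose identity depends on nested domains of Hox genes, and its ventral midline, the floor plate, secretes Sonic hedgehog. The dorsal midbrain becomes the tectum, a layered sensory centre, and its dorsal midline, the roof plate, secretes Wnt and BMP proteins that promote dorsal fates and the growth of progenitors.

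The 6 libraries held 10038073 to 11716906 recovered reads in genes, and 3 reads at a gene of median length corresponded to 0.0845 to 0.0992 RPKM. That level is lower for longer genes and covers counting error only. One library of each region stood apart from its pair. Across the genes tested, hindbrain 2 and 3 had a Pearson r of 0.994 on the log2(RPKM + 1) scale, and hindbrain 1 had 0.984 and 0.985 with them. Dorsal midbrain 1 and 2 had an r of 0.994, and dorsal midbrain 3 had 0.966 and 0.970 with them. Between regions, r was 0.935 to 0.942 for dorsal midbrain 3 and 0.879 to 0.907 for dorsal midbrain 1 and 2. Among the 5972 genes called different, dorsal midbrain 3 was the dorsal midbrain library closest to the hindbrain in 83.3%, and hindbrain 1 was the hindbrain library closest to the dorsal midbrain in 65.8%. Replicate 3 of each region had almost no Xist and high Y-linked Eif2s3y, while replicates 1 and 2 had the reverse. The sexes were thus spread alike over both groups, and replicate 3 came from other embryos than replicates 1 and 2. The labels give no batch or date.

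Many genes separated the regions. By limma on log2(RPKM + 1), with p-values adjusted over all 13219 genes and a threshold of 0.05, 5972 genes (45.2%) were called, 2561 (19.4%) higher and 3411 (25.8%) lower in the hindbrain. Without adjustment, 7243 genes had a p under 0.05. All genes tested had a median log2 difference, hindbrain minus dorsal midbrain, of -0.056. Among the genes called, 712 were higher and 648 lower by more than 1 on that scale, and 111 and 95 by more than 2. The samples of the regions did not overlap for 59.1% of genes tested. The 3 hindbrain samples all lay above the 3 dorsal midbrain samples for 24.9% of genes tested and all below for 34.2%. Differences on this scale understate the change of weakly expressed genes. The count moved with the weight given to single libraries. It was 10073 with sample quality weights, 7870 without dorsal midbrain 3, 2963 and 2895 without hindbrain 2 and 3, and 3412 and 3039 without dorsal midbrain 1 and 2. In what follows, the values of a region are given in the order of replicates 1, 2 and 3, and a difference is hindbrain minus dorsal midbrain in log2(RPKM + 1), with its standard error.

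**Figure D1:**
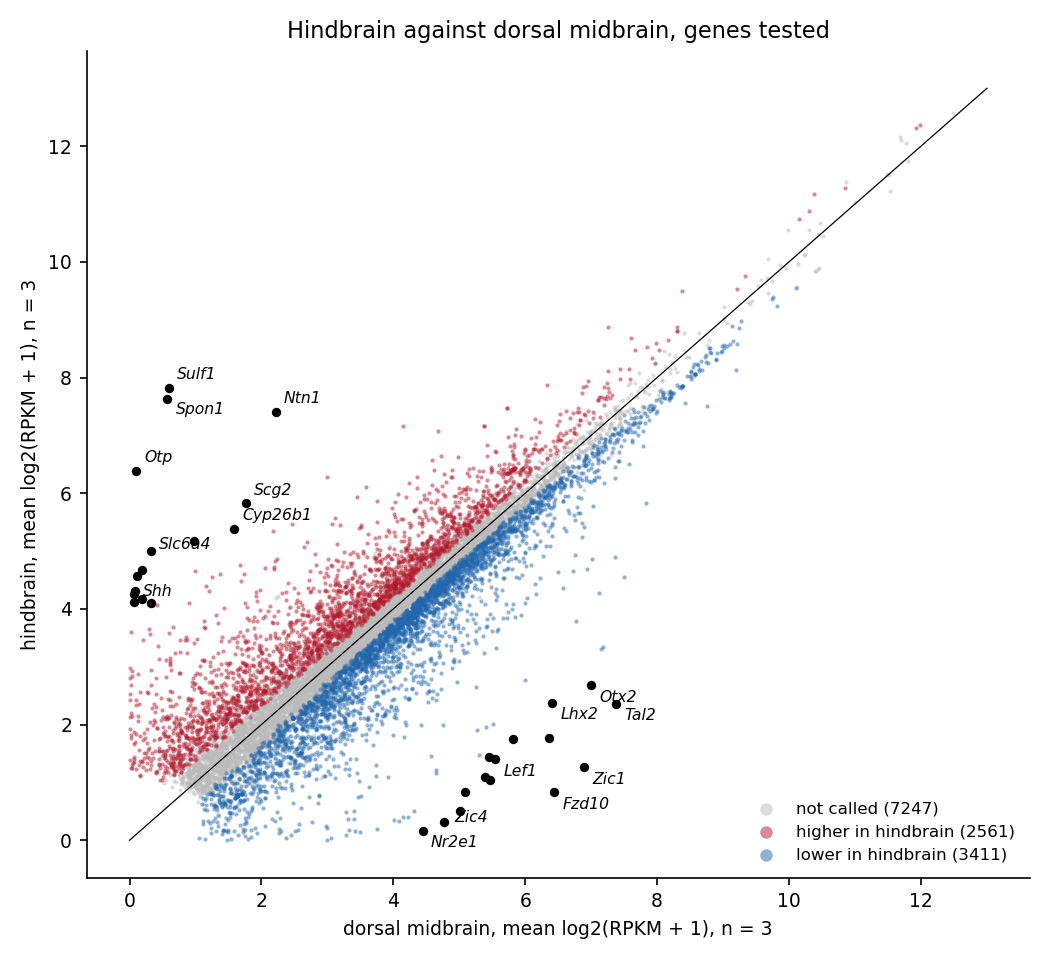
Mean log2(RPKM + 1) of the 3 dorsal midbrain samples (horizontal axis) and of the 3 hindbrain samples (vertical axis) for each of the 13219 genes tested, with 2561 called higher and 3411 called lower in the hindbrain in colour. Black points are the 15 highest and 15 lowest differences, some with their symbol, and the line marks equal means. Sulf1, Spon1 and Otp lie farthest above the line, and Zic1 and Fzd10 farthest below it.

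Genes that mark position checked the labels, and the markers chosen for the dorsal midbrain did not all go the same way. Otx2, Pax3, Pax7, Tal2 and Lhx2 were lower in the hindbrain. En1 was higher there, by 3.04 ± 0.66, and En2 was not called, both given below with the isthmus genes. Otx2, the homeobox gene of forebrain and midbrain, was at 4.22, 4.07 and 9.07 RPKM in hindbrain and at 156, 161 and 80.1 in dorsal midbrain, a difference of -4.31 ± 0.35 (limma adjusted p = 0.00054). Every hindbrain sample was far below every dorsal midbrain sample, but Otx2 was not absent from the hindbrain. Pax3, a factor of the dorsal neural tube, was at 4.31, 3.14 and 1.37 RPKM against 42.4, 40.1 and 31.0. Pax7, its close relative, was at 15.5, 4.35 and 2.39 RPKM against 36.8, 40.4 and 18.3, a difference of -2.22 ± 0.58 (limma adjusted p = 0.0218), with hindbrain 1 close to dorsal midbrain 3. Without any 1 of hindbrain 2, hindbrain 3, dorsal midbrain 1 or dorsal midbrain 2, Pax7 did not pass the threshold.

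Hox genes were present only at low levels and in part of the hindbrain samples. Hoxa2, the most anterior Hox gene of the rhombomeres, was at 0.107, 11.1 and 6.24 RPKM in hindbrain and at 0 in all 3 dorsal midbrain samples. Hoxb2 was at 0, 8.99 and 3.05 RPKM against 0, 0 and 0.251. Hindbrain 2 and 3 thus held both genes and hindbrain 1 held next to none. None of the 22 Hox genes listed passed the filter on low values, and their summed level was 0.705, 22.5 and 10.4 RPKM in hindbrain and 0.181, 0 and 0.379 in dorsal midbrain. Egr2, which marks alternate rhombomeres, was at no more than 0.0529 RPKM in every sample. Gbx2, the hindbrain partner of Otx2, was at 0.128, 7.44 and 7.47 RPKM in hindbrain and at 0.0776, 0.110 and 14.1 in dorsal midbrain, a difference of 0.72 ± 1.22 that did not pass (limma adjusted p = 0.646). Its highest value was in dorsal midbrain 3.

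Dorsal midbrain 3 also stood alone in other genes. Tcf7l2, an effector of Wnt signalling, was at 22.9, 18.9 and 378 RPKM in dorsal midbrain, where the 3 forebrain samples of the series had 403, 259 and 132 and the 3 alar plate samples 57.9, 80.4 and 215. Pax6, a factor of progenitors and of the forebrain, was at 1.81, 0.194 and 44.9 RPKM in dorsal midbrain, at 20.9, 18.4 and 9 in forebrain and at 1.34, 0.361 and 23.9 in alar plate. Six3, a forebrain gene, was at 0, 0.0431 and 5.5 RPKM in dorsal midbrain, at 7.62, 19.9 and 15.5 in forebrain and at 23.3, 13.6 and 11.3 in alar plate. These genes were thus far higher in dorsal midbrain 3 than in its pair, while Emx1, a marker of the telencephalon, stayed at or below 0.544 RPKM in all 6 samples. The part of these differences in the results was not tested. Values without this library are given for some of the results, not for all that move.

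**Figure D2:**
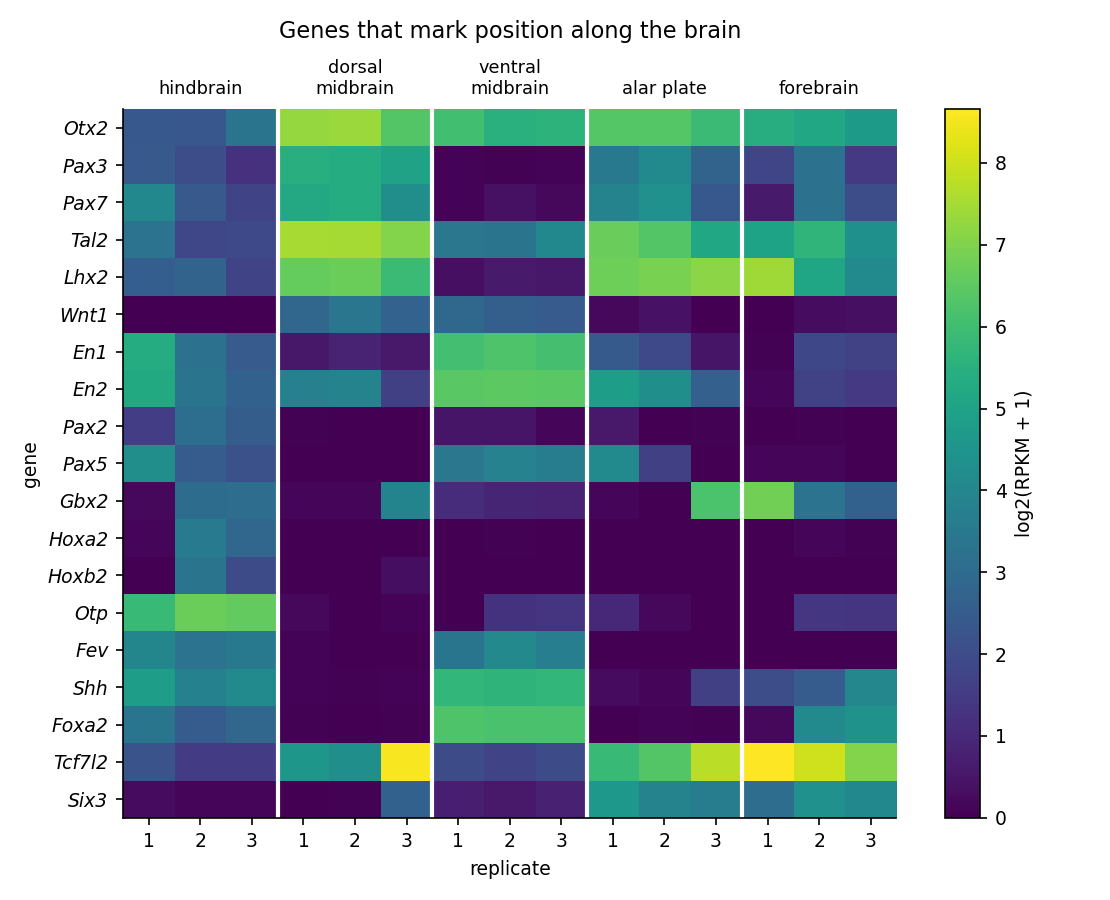
Level of 19 genes that mark position, as log2(RPKM + 1) by colour, in each of the 15 samples of the series, grouped by region with replicates 1 to 3 from left to right. Otx2, Tal2 and Lhx2 are high in dorsal midbrain and low in hindbrain, Hoxa2 and Hoxb2 appear only in hindbrain 2 and 3 at more than 1 RPKM, and Tcf7l2 reaches 378 RPKM in dorsal midbrain 3.

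Genes of the floor plate and the ventral neural tube were higher in the hindbrain almost throughout. Of 18 such genes tested, 17 were higher in the hindbrain, none lower and 1, Gli1, was not called, with a median difference of 2.72. Sulf1, a sulfatase that edits heparan sulfate, was at 310, 178 and 208 RPKM in hindbrain and at 0.505, 0.246 and 0.838 in dorsal midbrain, the highest difference of all at 7.23 ± 0.23 (limma adjusted p = 2.17e-05). Spon1, the extracellular protein F-spondin of the floor plate, was at 253, 160 and 187 RPKM against 0.386, 0.195 and 0.995. Ntn1, the attractive axon guidance cue netrin 1, was at 229, 135 and 156 RPKM against 3.09, 2.12 and 6.86, a difference of 5.19 ± 0.35. In all 3 genes hindbrain 1 was the highest sample and the regions were far apart. Shh, Sonic hedgehog itself, was at 27.7, 13 and 16.6 RPKM against 0.0625, 0.0295 and 0.0626, the dorsal midbrain values resting on 2, 1 and 2 reads. Foxa2, the transcription factor that specifies the floor plate, was at 9.35, 4.79 and 6.30 RPKM in hindbrain and at no more than 0.0389 in dorsal midbrain. Corin, a membrane protease of the floor plate, was higher by 3.98 ± 0.16. Nkx6-1 and Nkx2-2, homeobox genes of ventral progenitors, were higher by 3.64 ± 0.24 and 2.74 ± 0.15. Ptch1, the hedgehog receptor and a target of the pathway, was higher by 1.72 ± 0.32, while Gli1, another target, was at 3.08, 2.11 and 1.96 RPKM against 1.01, 0.650 and 2.35 and did not pass (limma adjusted p = 0.119).

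Floor plate genes were not particular to the hindbrain in this series. Their summed level was 675 to 1119 RPKM in hindbrain, 54.6 to 69.9 in dorsal midbrain and 1240 to 1376 in the ventral midbrain, where Foxa2 was at 75.5, 70.3 and 70.8. A dorsal sample was thus set against hindbrain samples that held floor plate transcripts, and the effects of position along the head-to-tail axis and along the dorsal-to-ventral axis cannot be told apart in this comparison. In bulk tissue, fewer cells of a type and less RNA per cell also cannot be told apart.

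Genes of serotonergic neurons, which arise in the ventral hindbrain, were higher there. Of 13 tested, 11 were called higher and none lower, with a median difference of 2.53. Slc6a4, the serotonin transporter, was at 37.3, 25.0 and 31.9 RPKM in hindbrain and at 0.212, 0.286 and 0.243 in dorsal midbrain, a difference of 4.68 ± 0.15 (limma adjusted p = 2.17e-05). Tph2, the rate-limiting enzyme of neuronal serotonin synthesis, was at 27.8, 15.2 and 15.7 RPKM against 0.0634, 0.0897 and 0.0318. Fev, the ETS factor that controls the serotonergic programme, was at 14.7, 8.92 and 10.4 RPKM against 0.0547, 0 and 0. The dorsal midbrain values of these genes were near 0. Slc18a2, the vesicular monoamine transporter, and Ddc, the decarboxylase shared by serotonin and dopamine synthesis, were higher by 2.87 ± 0.28 and 2.58 ± 0.34. Lmx1b, a factor required for these neurons, was higher by 1.85 ± 0.12. Gata2 and Gata3, which also act in GABAergic neurons, were not called. Gata3 was at 41.3, 27.1 and 32.8 RPKM against 14.1, 20.3 and 33.5, with dorsal midbrain 3 inside the hindbrain range. Serotonergic genes were also present in the ventral midbrain, where Slc6a4 was at 14.2, 25.6 and 20.2 RPKM.

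Slc17a8, the vesicular glutamate transporter VGLUT3 that some serotonergic neurons also use, was at 24.0, 18.8 and 26.3 RPKM in hindbrain and at 0.0759, 0.0896 and 0.0761 in dorsal midbrain (difference 4.46 ± 0.13). It was the 1 gene of 15 tested in the glutamatergic list that was higher in the hindbrain, against 9 that were lower. Its 3 hindbrain samples also lay above the other 12 samples of the series.

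Genes of hindbrain patterning and hindbrain neurons, mostly transcription factors, gave a mixed result. Of 12 tested, 5 were higher, none lower and 7 not called, with a median difference of 1.05. Otp, a homeobox gene of ventral and neuroendocrine neurons, was at 57.8, 103 and 95.6 RPKM in hindbrain and at 0.135, 0 and 0.0676 in dorsal midbrain, a difference of 6.30 ± 0.21 (limma adjusted p = 2.44e-05). Skor1, a corepressor of interneurons, was at 11.6, 8.88 and 9.89 RPKM against 0.133, 0.0627 and 0.289. Skor1 had similar levels in the 3 hindbrain samples, and Otp was lowest in hindbrain 1. Foxd3, of V1 interneurons and neural crest, was at 1.61, 8.66 and 9.48 RPKM in hindbrain and near 0 in dorsal midbrain. Cyp26b1, which degrades retinoic acid, was at 25.5, 50.9 and 52.1 RPKM against 3.33, 1.48 and 1.49. The gene listed as 6330527O06Rik, not a member of this list, was at 4.12, 35.4 and 26.4 RPKM against 0.0841, 0.0397 and 0.759. In the last 3 genes hindbrain 1 was the lowest of its region, as with Hoxa2. The 4 Irx genes did not pass. Without hindbrain 1 and dorsal midbrain 3 the list had 9 genes higher and 2 lower, with a median of 2.58. That fit called 3834 of all 13219 genes tested higher and 5006 lower.

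Isthmus genes and the targets of fibroblast growth factor (FGF) signalling were mostly higher in the hindbrain samples. Of 14 tested, 10 were higher, 1 lower and 3 not called, with a median difference of 1.17. En1, an engrailed homeobox gene of the midbrain and first rhombomere, was at 39.7, 8.56 and 4.55 RPKM in hindbrain and at 0.456, 0.799 and 0.490 in dorsal midbrain (difference 3.04 ± 0.66, limma adjusted p = 0.0123). Pax5, a paired-box gene of the isthmus, was at 18.2, 4.76 and 3.41 RPKM in hindbrain and at 0 in every dorsal midbrain sample. Hindbrain 1 was the highest sample in both genes, and by limma-voom on the recovered reads En1 missed the threshold (adjusted p = 0.0524). The second engrailed gene, En2, was at 37.0, 9.08 and 5.51 RPKM in hindbrain and between 2.12, in replicate 3, and 13.8 in dorsal midbrain, and was not called (difference 0.67 ± 0.81, limma adjusted p = 0.517). With hindbrain 1 and dorsal midbrain 3 left out, En2 had a difference of -0.80 ± 0.18 (limma adjusted p = 0.00504), so its direction depended on those 2 samples. Pax2, also expressed in hindbrain interneurons, was at 1.98, 7.78 and 4.82 RPKM against 0.0276, 0 and 0, with hindbrain 1 the lowest of its region. Wnt1, which is restricted to the midbrain side of the isthmus and the roof plate, was the 1 gene that was lower, at 0 in all 3 hindbrain samples and at 6.26, 9.54 and 5.61 RPKM in dorsal midbrain. Fgf8 itself was at 0 in 5 of the 6 samples. The FGF targets Spry1, Spry2, Etv5 and Dusp6 were each higher, by 0.39 to 1.51. Most members were weakly expressed, and with a minimum of 5 RPKM in 3 samples the count of higher genes was 2.

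On the other side, genes of the dorsal midbrain were lower in the hindbrain almost throughout. Of 23 tested in the list of dorsal midbrain and tectum identity, 19 were lower, none higher and 4 not called, with a median difference of -3.37, the most negative of the lists with 10 or more genes tested. Zic1, a zinc finger factor of the dorsal neural tube, was at 1.02, 1.26 and 2.04 RPKM in hindbrain and at 93.8, 120 and 146 in dorsal midbrain, a difference of -5.63 ± 0.20 (limma adjusted p = 2.98e-05). Its relatives Zic2 and Zic4 differed by -4.25 and -4.45. Tal2, a helix-loop-helix factor needed for midbrain GABAergic neurons, was at 8.87, 2.61 and 2.80 RPKM against 185, 181 and 133. Lhx2, a LIM homeobox gene, was at 4.94, 5.83 and 2.45 RPKM against 97.9, 103 and 58.5. The 2 regions were well apart in each of these genes. Tfap2b and Tfap2d, AP-2 factors of the tectum, differed by -4.59 ± 0.53 and -4.51 ± 0.35, and Barhl2, a homeobox gene, by -4.41 ± 0.35. Tfap2b kept 7.07 RPKM in hindbrain 1, against 1.42 and 1.01 in hindbrain 2 and 3. The 4 members not called were Meis2, Mab21l1, Sall1 and Efna5. Meis2 was at 11.5, 106 and 78.6 RPKM in hindbrain and at 59.9, 56.3 and 4.86 in dorsal midbrain, with hindbrain 1 and dorsal midbrain 3 each apart from their pair. Nr2e1, an orphan nuclear receptor of neural progenitors, was at 0.143, 0.0512 and 0.170 RPKM in hindbrain and at 23.9, 21.3 and 17.6 in dorsal midbrain, above the other 12 samples of the series.

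**Figure D3:**
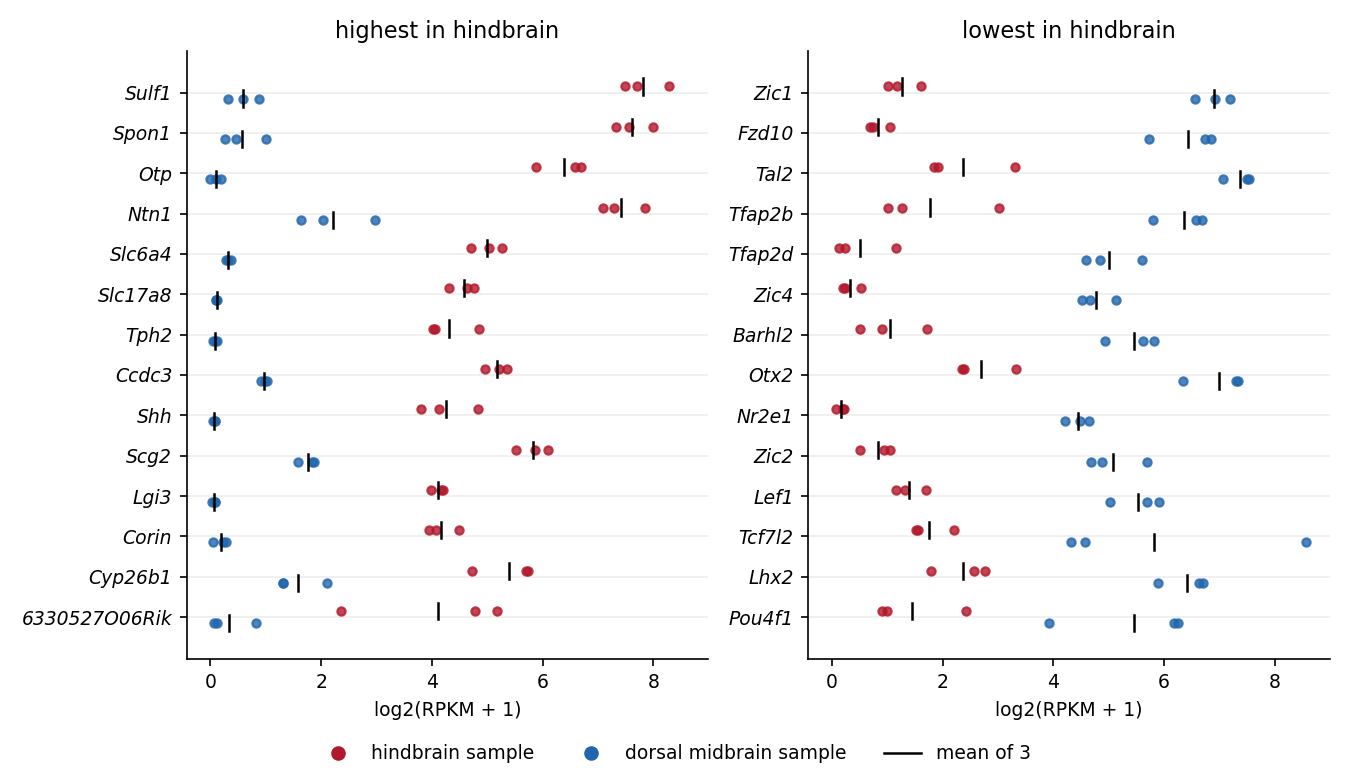
Levels in each of the 6 samples, as log2(RPKM + 1), of genes from the 15 highest (left) and the 15 lowest (right) differences, 14 shown on each side, among genes called, not overlapping and averaging 5 RPKM or more in the higher region. Points are samples and bars are means of 3. The differences run from 7.23 for Sulf1 to 3.78 for 6330527O06Rik and from -5.63 for Zic1 to -4.01 for Pou4f1, and Tcf7l2 has 1 dorsal midbrain sample, replicate 3, far above the others.

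Roof plate and BMP genes were lower in the hindbrain. Of 12 tested, 11 were lower, none higher and 1, Id1, was not called, with a median difference of -1.40. Msx1, a homeobox target of BMP signalling, was at 0.187, 0.210 and 0.160 RPKM in hindbrain and at 6.30, 7.59 and 6.74 in dorsal midbrain (difference -2.73 ± 0.11, limma adjusted p = 3.98e-05). Gdf7, a BMP ligand of the roof plate, was at 0.0634, 0 and 0 RPKM against 2.08, 3.70 and 1.85. Bmp7 was at 1.24, 1.94 and 0.863 RPKM against 7.23, 8.88 and 5.49. All were low in every hindbrain sample, and replicate 3 did not stand apart in Msx1. With a minimum of 5 RPKM in 3 samples, the count of lower genes was 4. These genes were not particular to the dorsal midbrain in this series. Their summed level was 116 to 155 RPKM in dorsal midbrain and 207 to 258 in the ventral midbrain, where Msx1 was at 13, 12.8 and 10.9.

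Wnt signalling genes were followed from ligands to targets. Of 10 Wnt ligands tested, 6 were lower and 2 higher in the hindbrain, with a median of -0.89. Besides Wnt1, Wnt3 was at 0.976, 0.876 and 0.832 RPKM against 12.3, 15 and 8.03, and Wnt2b and Wnt9a differed by -2.05 ± 0.14 and -2.14 ± 0.11. Wnt5a, a ligand of the beta-catenin-independent branch that is made in the ventral midline, went the other way, at 13.7, 5.11 and 5.17 RPKM against 2.18, 1.97 and 3.31 (difference 1.26 ± 0.35, limma adjusted p = 0.0270). Most ligands were thus lower in the hindbrain, while Wnt5a and Wnt4 were higher. Among 14 receptors, 8 were lower and 3 higher, with a median of -0.37. Fzd10 was at 0.616, 0.663 and 1.08 RPKM against 106, 114 and 52.2, a difference of -5.62 ± 0.29, the strongest of any Wnt gene. Fzd7 and Fzd9 were higher by 1.59 ± 0.24 and 0.94 ± 0.16. Several receptor calls were weak, since the count of lower ones was 4 without any 1 of hindbrain 2, hindbrain 3, dorsal midbrain 1 or dorsal midbrain 2.

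Of 10 secreted Wnt modulators, 6 were lower and 2 higher, with a median of -1.44. Rspo1, an R-spondin that strengthens Wnt signals, was at 0.147, 0.0441 and 0.168 RPKM in hindbrain and at 8.35, 12.7 and 8.65 in dorsal midbrain. Rspo2 and Rspo3 differed by -1.47 ± 0.25 and -1.6 ± 0.26. The inhibitors Dkk1 and Wif1 differed by -1.53 ± 0.24 and -1.40 ± 0.18. Draxin, under its older symbol 2610109H07Rik, differed by -1.89 ± 0.16. Activators and inhibitors were thus lower together. The inhibitors Sfrp1 and Frzb were higher by 1.52 ± 0.44 and 1.74 ± 0.41. Neither of these remained called without hindbrain 2, hindbrain 3 or dorsal midbrain 2.

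Transcription factors and common target genes of the pathway were lower. Of 13 tested, 11 were lower, none higher and 2, Nkd2 and Apcdd1, were not called, with a median of -1.95 (-2.07 without hindbrain 1 and dorsal midbrain 3). Axin2, a feedback inhibitor widely used as a Wnt reporter, was at 4.89, 5.33 and 5.51 RPKM in hindbrain and at 38.4, 44.1 and 30.0 in dorsal midbrain (difference -2.61 ± 0.14, limma adjusted p = 0.000108). Lef1, a DNA-binding partner of beta-catenin, was at 2.27, 1.24 and 1.49 RPKM against 50.6, 58.9 and 31.5. Sp5, another direct target, was at 0.389, 0.117 and 0.369 RPKM against 9.99, 15 and 4.53. Each of them was lower in every hindbrain sample than in any other sample of the series. Ccnd2, a D-type cyclin, was at 16.6, 7.21 and 6.24 RPKM against 138, 134 and 162. Tcf7l2 was at 3.62, 1.85 and 1.93 RPKM in hindbrain, and its difference of -4.06 ± 1.06 (limma adjusted p = 0.0213) was -2.69 ± 0.22 without dorsal midbrain 3 (limma adjusted p = 0.000147). It did not pass without hindbrain 2 or 3, or by limma-voom. Ccnd1 showed the opposite spread, at 41.5, 22.5 and 25.9 RPKM against 284, 298 and 51.2, and it did not pass without any 1 of hindbrain 2, hindbrain 3, dorsal midbrain 1 or dorsal midbrain 2.

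Retinoic acid genes had no common direction. Of 11 tested, 2 were higher, 5 lower and 4 not called, with a median of -0.34, where 19.4% of all genes tested were higher and 25.8% lower. Cyp26b1 and the reductase Dhrs3 were the 2 that were higher, Dhrs3 at 2.31, 4.41 and 4.32 RPKM against 0.547, 0.774 and 1.19. Crabp1, a cytoplasmic retinoic acid binding protein, was lower, at 9.84, 32.5 and 26.4 RPKM against 93.6, 89.6 and 40.3. Of the synthesizing enzymes Aldh1a1, Aldh1a2 and Aldh1a3, none passed the filter on low values. The count of 5 was 1 without hindbrain 3, dorsal midbrain 1 or dorsal midbrain 2.

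Cell cycle genes were lower in the hindbrain without exception in the lists used. All 32 mitosis genes tested were lower, with a median difference of -1.76, and all 30 DNA replication genes were lower, with a median of -1.30. Top2a, the topoisomerase that untangles replicated DNA, was at 36.4, 18.6 and 21.0 RPKM in hindbrain and at 145, 125 and 62.8 in dorsal midbrain (difference -2.06 ± 0.36, limma adjusted p = 0.00686). Ccnb1, the mitotic cyclin B1, was at 16.0, 9.05 and 10.5 RPKM against 64.3, 57.5 and 27.9. Ube2c, the ubiquitin conjugating enzyme of the anaphase-promoting complex, was at 24.3, 13.7 and 12.4 RPKM against 79.2, 81.1 and 38.9. In each, dorsal midbrain 3 lay between the rest of its region and the hindbrain, and hindbrain 1 was the highest of its region. Mcm3 and Mcm5, subunits of the replicative helicase, differed by -2.15 ± 0.32 and -1.85 ± 0.28. The summed level of the mitosis genes was 397, 222 and 238 RPKM in hindbrain and 1359, 1234 and 630 in dorsal midbrain, and that of the DNA replication genes 385, 284 and 290 against 1126, 998 and 550. Without hindbrain 1 and dorsal midbrain 3 the medians were -2.30 and -1.71. Every leave-out and alternative fit tried gave between 29 and 32 mitosis genes and between 20 and 30 DNA replication genes as lower.

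**Figure D4:**
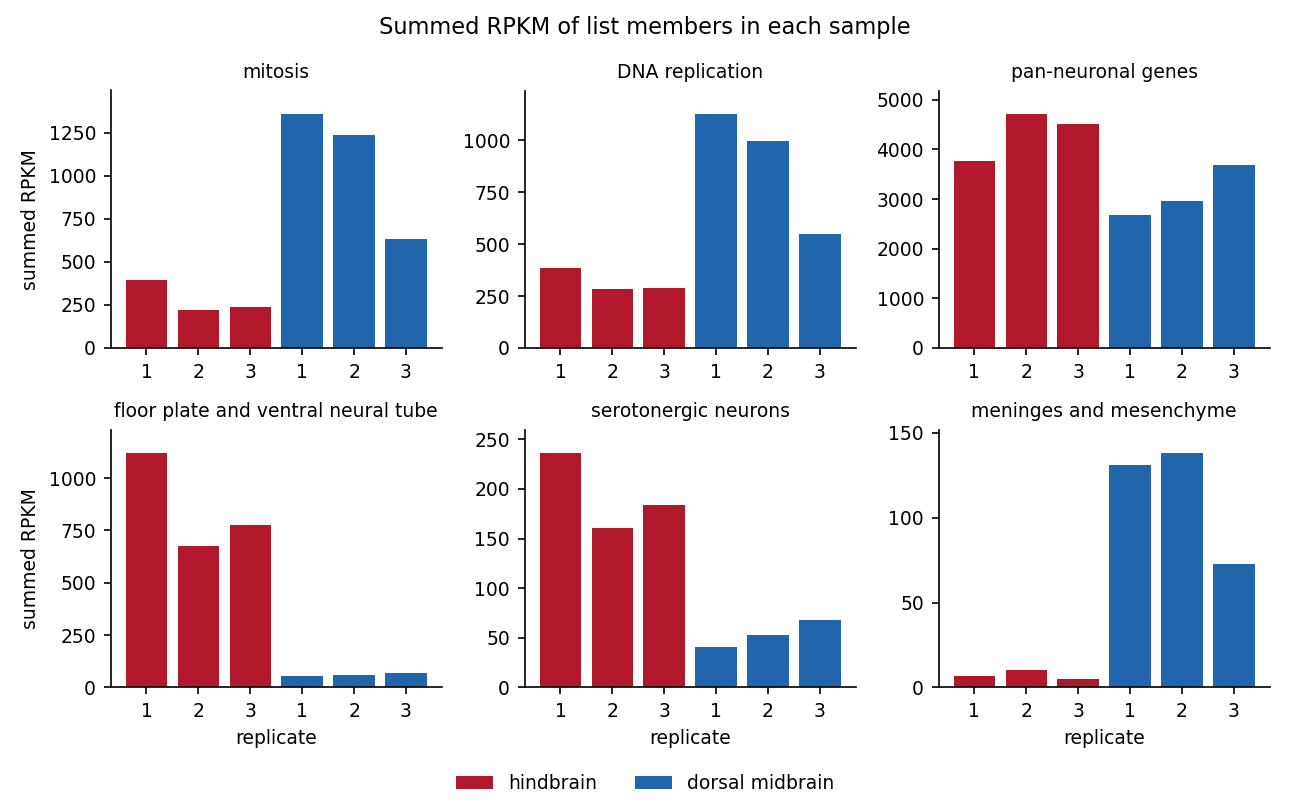
Summed RPKM of the members of 6 gene lists in each of the 3 hindbrain and 3 dorsal midbrain samples, with replicates 1 to 3 on the horizontal axis of each panel. Mitosis and DNA replication sums are 222 to 397 and 284 to 385 RPKM in hindbrain and at least 630 and 550 in dorsal midbrain, while floor plate and serotonergic sums are high in hindbrain, and dorsal midbrain 3 lies nearer to the hindbrain than its pair in the upper 3 panels.

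Because these genes moved together, their promoters were searched for the elements known to time their expression. Windows of 250 bases before the start site came from RefSeq (GRCm38.p6), with 30 windows for 28 of the 32 mitosis genes and 30 windows for 26 of the 30 DNA replication genes. The CCAAT box (CCAAT), bound by NF-Y, and the cell cycle homology region (CHR, TTTGAA), bound by the DREAM and MuvB complexes, were read on both strands. In the mitosis windows the CCAAT box was found in 83.3% (25 of 30), against 33.8% of all 32851 windows and 35.4% of those of genes tested here. The CHR letters were found in 36.7% (11 of 30), against 16% of all windows and 9.97% of those of genes tested. Top2a, Ube2c and Ccnb2 are shown as the 3 genes with the largest difference among those whose window held both elements, and Ccnb2, mitotic cyclin B2, was at 14.2, 5.57 and 7.71 RPKM in hindbrain and at 44.3, 40.8 and 21.4 in dorsal midbrain. The windows are chr11:99024190-99024439 (minus strand), chr2:164769679-164769928 (plus strand) and chr9:70421555-70421804 (minus strand), read 5′ to 3′ towards the start site, with both elements on either strand in capitals.
Top2a: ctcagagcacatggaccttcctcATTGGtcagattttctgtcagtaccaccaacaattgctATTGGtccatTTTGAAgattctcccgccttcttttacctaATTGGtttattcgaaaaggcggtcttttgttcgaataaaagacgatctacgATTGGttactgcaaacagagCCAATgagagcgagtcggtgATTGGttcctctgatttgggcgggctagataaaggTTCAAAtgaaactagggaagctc
Ube2c: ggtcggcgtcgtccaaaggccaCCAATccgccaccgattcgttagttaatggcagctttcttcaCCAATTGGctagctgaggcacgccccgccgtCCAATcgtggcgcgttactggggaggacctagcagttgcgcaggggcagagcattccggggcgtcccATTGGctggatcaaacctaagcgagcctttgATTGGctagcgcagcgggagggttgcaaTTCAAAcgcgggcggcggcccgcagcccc
Ccnb2: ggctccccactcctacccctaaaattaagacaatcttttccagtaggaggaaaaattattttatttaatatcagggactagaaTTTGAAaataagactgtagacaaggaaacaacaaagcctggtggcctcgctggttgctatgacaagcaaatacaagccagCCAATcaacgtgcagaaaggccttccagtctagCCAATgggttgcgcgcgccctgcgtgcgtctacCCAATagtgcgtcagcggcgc

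Capitals in the Top2a and Ube2c windows mark 6 CCAAT boxes each, and those in the Ccnb2 window 3, in addition to 2, 1 and 1 CHR elements. The E2F site, searched as TTTGGCGC, TTTGCCGC, TTTCGCGC or TTTCCCGC on both strands, was found in 26.7% of the DNA replication windows (8 of 30), against 1.86% of all windows, 3.28% of those of genes tested and 3.33% (1 of 30) of the mitosis windows. The CCAAT box was in 56.7% of the DNA replication windows. Mcm5 and Cdc6 are shown as the 2 genes with the largest difference among those with an E2F site, marked in capitals, at chr8:75109259-75109508 (plus strand) and chr11:98907901-98908150 (plus strand). Cdc6, a loading factor of the helicase, was at 1.39, 0.960 and 1.17 RPKM in hindbrain and at 6.05, 5.23 and 2.40 in dorsal midbrain.
Mcm5: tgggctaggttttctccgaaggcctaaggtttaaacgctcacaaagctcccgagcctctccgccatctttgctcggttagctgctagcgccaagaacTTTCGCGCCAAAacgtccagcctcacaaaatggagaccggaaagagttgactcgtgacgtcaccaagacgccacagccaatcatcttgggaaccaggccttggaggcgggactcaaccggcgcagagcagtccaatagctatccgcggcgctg
Cdc6: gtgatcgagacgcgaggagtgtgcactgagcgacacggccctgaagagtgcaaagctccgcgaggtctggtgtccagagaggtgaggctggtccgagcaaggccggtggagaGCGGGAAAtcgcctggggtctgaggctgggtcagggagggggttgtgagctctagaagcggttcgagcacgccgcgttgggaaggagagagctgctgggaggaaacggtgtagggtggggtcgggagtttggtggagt

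The Mcm5 window held 2 overlapping matches and the Cdc6 window 1. In the windows of the Wnt factors and targets, the TCF/LEF letters (CTTTGAT or CTTTGAA, the latter containing TTTGAA) were found in 6.67% (1 of 15, for Sp5), against 7.48% of all windows and 5% of those of tested genes. A match is a run of letters and not a measured binding site.

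Neural progenitor genes did not move as one. Of 20 tested, 5 were higher, 7 lower and 8 not called, with a median of -0.13, near the shares of all genes tested (19.4% higher, 25.8% lower). Slc1a3, the glial glutamate transporter of radial glia, was at 81.3, 62.6 and 60.8 RPKM in hindbrain and at 9.67, 8.75 and 15.7 in dorsal midbrain (difference 2.51 ± 0.22, limma adjusted p = 0.000624). Fabp7, a fatty acid binding protein of radial glia, was at 897, 677 and 618 RPKM against 285, 306 and 412. Hes5, a Notch target that holds cells in the progenitor state, went the other way, at 49.0, 32.2 and 31.2 RPKM against 148, 151 and 68.9. Sox3 and Sox9 differed by -1.19 ± 0.31 and -0.95 ± 0.24, and Nes, the progenitor filament nestin, was not called. Slc1a3 and Fabp7 were therefore higher while Hes5, Sox3 and Sox9 were lower. The 7 lower genes were 3 without hindbrain 2 or 3 and 11 without hindbrain 1 and dorsal midbrain 3. Those 3 fits called 1620, 1569 and 5006 of all 13219 genes tested lower.

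Genes of early glia that were called were higher. Of 6 tested, 4 were higher and 2 not called, with a median of 0.73. Aldh1l1, an astroglial folate enzyme, was at 44.3, 20.3 and 19.6 RPKM against 2.20, 2.69 and 1.77, and Aqp4, a water channel of astroglia, was at 2.73, 2.17 and 2.53 against 0.183, 0.173 and 0.0167. Both were separate between regions in every sample. Olig2, a factor of motor neuron and oligodendrocyte progenitors, was at 3.26, 1.11 and 1.37 RPKM against 0.375, 0.386 and 0.615 and did not pass in the fit of all 15 samples (limma adjusted p = 0.238).

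Neuronal genes were higher in the hindbrain. Of 27 pan-neuronal genes tested, 20 were higher, none lower and 7 not called, with a median of 0.68. Scg2, secretogranin II of dense-core vesicles, had by far the largest difference of the list, at 45.1, 57.0 and 67.5 RPKM against 2.57, 1.99 and 2.65 (4.07 ± 0.16, limma adjusted p = 3.98e-05). Mapt, the microtubule protein tau, was at 191, 261 and 250 RPKM against 56.0, 69.6 and 128. In Mapt dorsal midbrain 3 was the nearest to the hindbrain. Tubb3, the neuronal tubulin made from the earliest stage, was not called, with a difference of -0.18 ± 0.12. The summed level of the list was 3760, 4717 and 4521 RPKM in hindbrain and 2683, 2962 and 3692 in dorsal midbrain. The count of 20 higher genes was 10 to 13 without any 1 of hindbrain 2, hindbrain 3, dorsal midbrain 1 or dorsal midbrain 2, and the median without dorsal midbrain 3 was 0.88.

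Ion channels of neurons followed, with 13 of 22 higher and none lower and a median of 0.71. Kcnk9, a background potassium channel, was at 2.40, 4.17 and 3.22 RPKM against 0.528, 0.311 and 0.331 (difference 1.6 ± 0.17, limma adjusted p = 0.00161). Scn3b, a sodium channel subunit, was at 30.7, 40.3 and 41.2 RPKM against 9.22, 11.1 and 20.3. The count was 6, 7 and 8 without hindbrain 2, hindbrain 3 and dorsal midbrain 2, and 20 without hindbrain 1 and dorsal midbrain 3. In that order, those fits called 1343, 1326, 1376 and 3834 of all 13219 genes tested higher.

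Transmitter genes were called in both directions. In the glutamatergic list 9 of 15 genes were lower, with a median of -0.92. Slc17a6, the vesicular transporter VGLUT2, was at 8.32, 18.0 and 15.7 RPKM in hindbrain and at 29.2, 27.1 and 32.8 in dorsal midbrain (difference -1.09 ± 0.25, limma adjusted p = 0.0146). Barhl1, a homeobox gene of excitatory neurons, was at 0.752, 0.270 and 0.299 RPKM against 17.9, 19.6 and 19.3, and Neurog2, a proneural factor, was at 12.2, 13.5 and 14.1 against 29.5, 29.1 and 53.7. Pou4f1, a POU factor of tectal and sensory neurons, was at 4.39, 0.876 and 0.999 RPKM against 71.7, 75.6 and 14.1, with dorsal midbrain 3 well below its pair. In the GABAergic and glycinergic list, 5 of 14 were higher, 3 lower and 6 not called, with a median of 0.59. Of all genes tested, 19.4% were higher and 25.8% lower. Slc32a1, the vesicular GABA and glycine transporter, was at 35.7, 33.5 and 31.8 RPKM against 7, 10.7 and 24.3. The factors Tal2 and Helt were among the 3 lower genes, so this transporter and midbrain determinants of the same class moved apart. Helt was at 0.117, 0.0523 and 0.149 RPKM against 13.1, 14.2 and 5.73. Slc6a5, the neuronal glycine transporter, did not pass the filter, at 0.144, 4.09 and 2.72 RPKM in hindbrain and 0 in dorsal midbrain. Without dorsal midbrain 3, 9 genes of this list were higher, in a fit that called 3488 of all 13219 genes tested higher.

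Noradrenergic and motor neuron genes were at low levels. Dbh, the enzyme that makes noradrenaline, was at 3.19, 1.61 and 0.511 RPKM in hindbrain and at 0 in dorsal midbrain, and did not pass the filter. Th was at 1.38, 2.30 and 1.66 RPKM against 0.605, 0.571 and 0.793 (difference 0.74 ± 0.15, limma adjusted p = 0.0104). Of the motor and cholinergic list 3 of 6 tested were higher, namely Nkx6-1, Nkx6-2 and Lhx4, and Lhx4 was at 7.31, 5.51 and 5.24 RPKM in hindbrain and at 0 in dorsal midbrain. These 3 are homeobox genes of ventral progenitors and early neurons, while Chat and Slc18a3, which define cholinergic neurons, did not pass the filter.

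Axon guidance genes moved in both directions. Of 34 tested, 16 were higher, 7 lower and 11 not called, with a median of 0.46, where 19.4% of all genes tested were higher and 25.8% lower. Slit3, a repellent of the midline, was at 7.54, 7.59 and 8.19 RPKM against 0.170, 0.160 and 0.850, and Nrp2, a semaphorin receptor, at 41.7, 41.6 and 47.0 against 3.51, 4.40 and 5.83 (difference 3.01 ± 0.15, limma adjusted p = 8.99e-05). Sema3a, a secreted semaphorin, was higher by 1.85 ± 0.20. Unc5c, a repulsive netrin receptor, was lower, at 0.557, 2.27 and 1.59 RPKM against 7.03, 7.04 and 12.9. Ntng2, a membrane-bound relative of netrins, was lower too, at 4.12, 3.10 and 1.99 RPKM against 22.4, 23.3 and 16.4. Dcc, the attractive netrin receptor, was at 51.1, 52.5 and 56.3 RPKM against 61.0, 62.9 and 72.5, a difference of -0.29 ± 0.08. The cue netrin 1 was thus higher, while its receptors had no common direction. Unc5c and Dcc were lower, Unc5a was higher by 1.39 ± 0.27, and Unc5b and Unc5d were not called. The count of 7 lower genes was 3 or 4 without any 1 of hindbrain 2, hindbrain 3, dorsal midbrain 1 or dorsal midbrain 2. Without dorsal midbrain 3, 19 genes of the list were higher and 9 lower, with a median of 0.84. That fit called 3488 of all 13219 genes tested higher and 4382 lower.

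**Figure D5:**
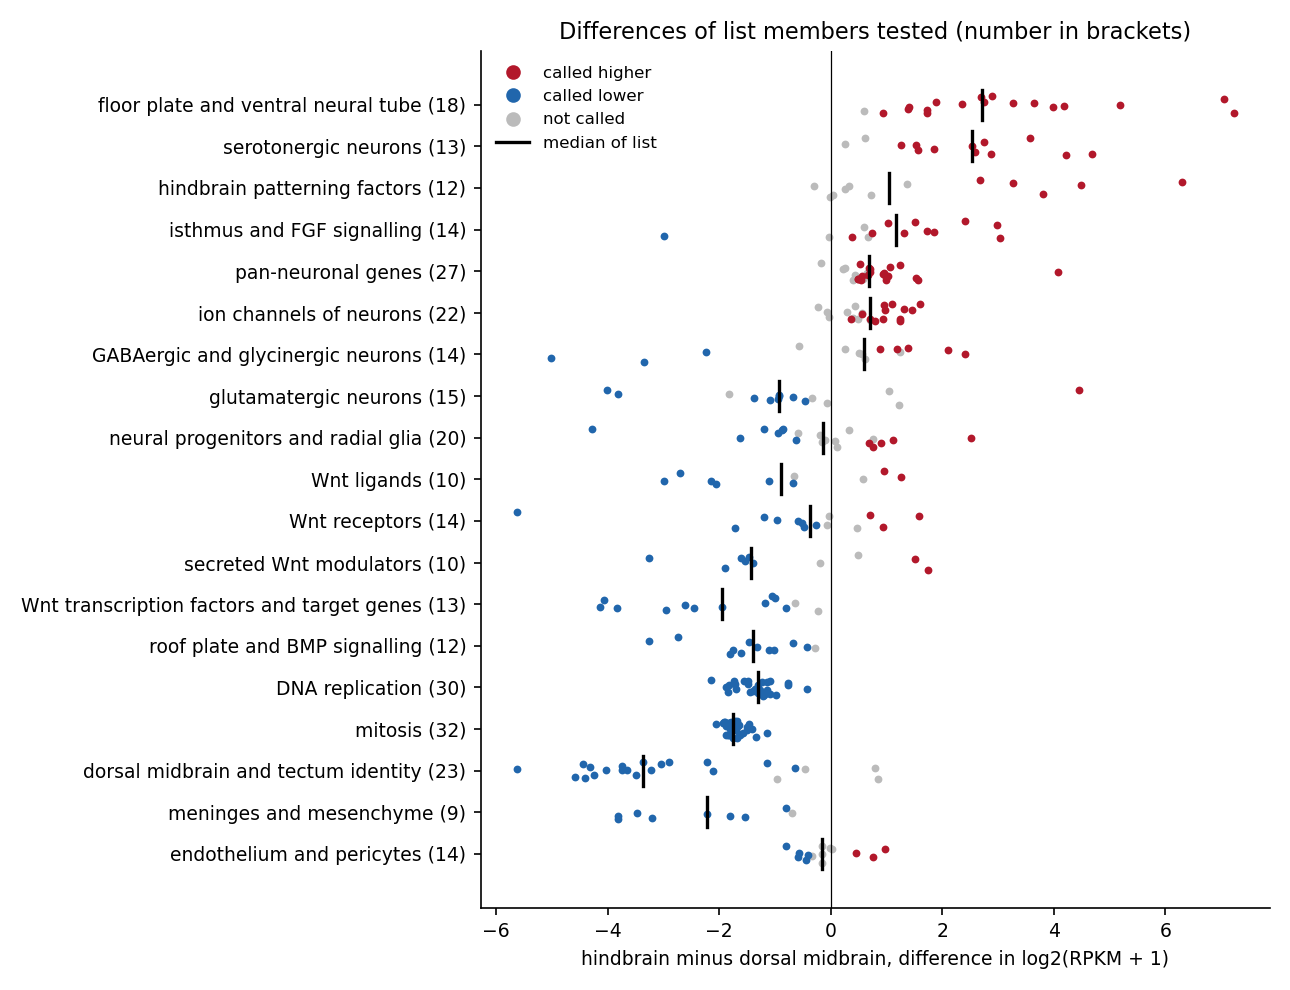
Difference in log2(RPKM + 1), hindbrain minus dorsal midbrain, of each tested member of 19 gene lists, with the number tested in brackets, the call by colour and the median of the list as a bar. Medians run from 2.72 for floor plate genes to -3.37 for dorsal midbrain genes, all mitosis and DNA replication genes lie left of 0, and the median of all 13219 genes was -0.056.

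In the fit reported, few cofactors of Hox proteins were called, and about as many timing factors as among all genes. Both counts were higher without dorsal midbrain 3. Of 9 MEIS and PBX genes, the homeodomain partners of Hox proteins, Pbx3 was higher, at 117, 132 and 131 RPKM against 68.8, 66.9 and 47.3 (difference 1.06 ± 0.15), Pbx2 was lower with -0.51 ± 0.07 and 7 were not called. Meis1 was at 13.1, 47.8 and 41.0 RPKM against 9.25, 8.41 and 16.2 and missed the threshold (limma adjusted p = 0.0535). In both Meis1 and Meis2, hindbrain 2 and 3 were well above hindbrain 1, and in Meis2 dorsal midbrain 3 was also far below its pair. Among factors that switch on late in progenitors, Nfia, Nfib and Nfix were higher by 1.23 ± 0.30, 0.90 ± 0.15 and 1.08 ± 0.12. Of 10 tested 3 were higher and 2 lower, where 45.2% of all genes tested were called. Without dorsal midbrain 3, 4 MEIS and PBX genes were higher and 1 lower, and 6 late factors were higher and 2 lower. That fit called 7870 of all 13219 genes tested. Among Lin28 and let-7 target genes, which mark early progenitors, 4 of 8 were lower and none higher, with a median of -0.73. Igf2bp1, an RNA-binding protein of this group, was at 9.38, 7.02 and 7.72 RPKM against 31.3, 27.9 and 17.4. Lin28a was at 0.531, 0.739 and 0.612 RPKM against 3.16, 2.69 and 1.09, and lost its call when any 1 sample other than dorsal midbrain 3 was left out. Lin28b, Hmga2, Igf2bp2 and Mycn were not called, and the late factors Sox6 and Zfp238 were lower, opposite to Nfia.

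Markers of other cell types differed as well, most of all those of the meninges. Of 9 meningeal and mesenchymal genes tested, 8 were lower in the hindbrain and 1, Pdgfra, was not called, with a median of -2.21. Col1a1, fibrillar collagen, was at 0.0991, 0.747 and 0.203 RPKM in hindbrain and at 21.7, 22.5 and 11.1 in dorsal midbrain (difference -3.82 ± 0.29, limma adjusted p = 0.000443). Lum, a small proteoglycan of connective tissue, was at 0, 0.196 and 0 RPKM against 11.1, 10.5 and 5.66. The summed level of the list was 5.05 to 10 RPKM in hindbrain and 73.0 to 138 in dorsal midbrain, so its defining markers were near 0 in the hindbrain and present in every dorsal midbrain sample. Meningeal markers therefore moved with the same groups as the genes of the dorsal midbrain, the roof plate and the cell cycle, and their part in those results was not tested.

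Blood and vessel markers had medians nearer 0 than the meningeal list. Of 6 erythroid genes tested, limma called none, with 2 at an unadjusted p under 0.05 and none by limma-voom, and the median was -0.53. Without dorsal midbrain 3, 5 were lower, and 6 with sample quality weights. Those fits called 4382 and 5665 of all 13219 genes tested lower. Of 14 endothelial and pericyte genes, 3 were higher, 5 lower and 6 not called, with a median of -0.15, near the shares of all genes tested (19.4% higher, 25.8% lower). The endothelial cadherin Cdh5 was at 5.07, 6.64 and 5.75 RPKM against 13.2, 12.1 and 7.97, while Rgs5, of pericytes, was at 10.9, 13.1 and 14.8 against 7.02, 6.41 and 8.17. The 5 lower endothelial genes were 1 or 2 without any 1 library other than dorsal midbrain 3, and 8 without that one. Of 8 microglial genes 5 were lower, with a median of -0.38. Mrc1, a receptor of macrophages at brain borders, was at 0.105, 0.221 and 0.165 RPKM against 2.60, 2.59 and 3.01, and Csf1r, of all microglia and macrophages, at 2.82, 2.53 and 2.43 against 3.33, 3.65 and 3.62. Calls of the microglial list other than Mrc1 were weak, and the count of 5 was 1 or 2 without any 1 library other than dorsal midbrain 3. Ttr, which defines the choroid plexus, was at 0.859 RPKM or less in every sample. Neural crest and ganglion genes had 3 of 7 higher and 1 lower, and Sox10, which defines crest and its glia, did not pass the filter.

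Few of the genes called were at their extreme in the series. The 3 hindbrain samples lay above the other 12 for 2.43% of genes tested and below them for 1.49%, and the 3 dorsal midbrain samples above the other 12 for 6.15% and below for 2.35%. Of the 2561 genes higher in the hindbrain, 291 had the hindbrain above all others and 280 had the dorsal midbrain below all others. Of the 3411 lower, 692 had the dorsal midbrain above all others and 184 had the hindbrain below all others. Otp, Slc17a8 and Tph2 were in the first set. Axin2, Fzd10 and Sp5 were in both sets of the lower genes, with the dorsal midbrain highest and the hindbrain lowest of all 5 regions.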

How the data were processed

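Total RNA of 3 hindbrain and 3 dorsal midbrain samples was used at 200 ng per library with a TruSeq protocol of Illumina, per the labels' protocols. The authors deposited 1 table of RPKM values per gene and sample. The submitters' processing notes name Bowtie and the build mm9, and neither its version nor the annotation, counting, strand use or filters are given in the sources used here. Genes that share reads with copies or overlapping genes are therefore uncertain.

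Reads were recovered from the RPKM values by finding, for each gene, the RPKM step that a single read makes. Of 16612 genes above 0 in at least 10 libraries, 16603 (99.95%) were whole in every library within 0.02 to 0.15 reads. Differences were tested with limma 3.58.1 (R 4.3.3) with a variance trend on log2(RPKM + 1), two-sided, in the 6 samples alone, for genes with at least 1 RPKM in at least 3 samples, with Benjamini-Hochberg adjustment over all 13219 genes and a threshold of 0.05. Alternatives were another pseudocount, other filters, 2 scalings, a replicate block, all 15 samples, no trend, quality weights, leaving out samples, and limma-voom on the recovered reads, which was chosen after seeing the data.

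Named genes were the 15 highest and 15 lowest differences among called, non-overlapping genes averaging 5 RPKM or more in the higher region, up to 6 called members of each of 35 lists by size of difference, and markers of position and cell type. Others, such as Ccnb2 and Cdc6, were chosen after their values were seen. The 35 lists held 582 entries, of which 580 were in the table, 3 under an older symbol. Some of these genes are not reported here. The groups and lists were chosen with earlier results of these data known. Lists are described by counts and medians, without a test of the list. The shares over all genes tested (19.4% higher, 25.8% lower) are the background for every list in the fit reported. Other fits have their own background. Of 13219 genes, 3488 were higher and 4382 lower without dorsal midbrain 3, and 1326 and 1569 without hindbrain 3. The files are in mm9. No position from them was used, and promoter windows were matched by gene symbol to RefSeq in GRCm38.p6.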

Additional observations from a re-analysis of the deposited data

How the results depend on the processing

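No gene called in the fit reported had the opposite direction under any alternative in which it was called. Sample quality weights gave 10073 genes (4408 higher, 5665 lower), with the lowest weights for dorsal midbrain 3 (0.151) and hindbrain 1 (0.393). Leaving out 1 sample gave 2895 to 7870 genes, 1326 to 3488 higher and 1569 to 4382 lower, the lowest without hindbrain 3 and the highest without dorsal midbrain 3, and fewer samples leave fewer degrees of freedom. Median-ratio scaling gave 2943 higher and 2895 lower, an even split. The fit of all 15 samples called 4266, the 5 RPKM filter 4643 of 9731 tested, and limma-voom 5984. En2, not called in the fit reported, was -0.80 without hindbrain 1 and dorsal midbrain 3. Of 156 named genes called, 12 lost their call in the fit of all 15, 7 with limma-voom and 25 without hindbrain 3 or dorsal midbrain 2. At these depths, genes of a few reads, such as most Hox genes, could not be compared.

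Replicate numbers are shared by the regions, and whether they pair the samples is not given in the labels. Same-numbered samples shared the Xist and Eif2s3y pattern given above, which does not tell number 1 from number 2. The deviations of same-numbered samples had an r of 0.377, -0.094 and 0.312, so numbers 1 and 3 matched best with themselves, while hindbrain 2 correlated best with dorsal midbrain 3 (0.211). The fit with the replicate number as a block called 6128 genes, 2634 higher and 3494 lower, and 2 named genes lost their call. With the block, 5 of 6 erythroid genes were lower, against none without it.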
